A study of Homo sapiens with 6 samples.

Results

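The comparison of ZNF146 disruption with the empty vector rests on 4 of the 6 RNA-seq libraries of the study, chosen by the treatment and replicate that the labels give. Of these, 2 come from HEK293 cells that received 4 guides against ZNF146 on Cas9 plasmids (sgZNF146), and 2 from cells given the plasmid without a guide (EV). HEK293 is an established line derived from human embryonic kidney. Cells of both groups took up the PX459 plasmid, which encodes Cas9 and puromycin resistance, stayed under puromycin for 36 h from the day after transfection and were grown until 2 weeks had passed. The transfection was transient and no cloning step is described, so that each sgZNF146 library averages over a mixed culture in which cells can carry different edits or none. The libraries of a group are biological duplicates according to the labels. The remaining 2 libraries, from cells given guides against ZNF507 (sgZNF507), entered the fit only as a further source of the spread between duplicates.

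ZNF146, also known as OZF, is a nuclear protein that consists almost entirely of C2H2 zinc fingers, domains that bind DNA in a sequence-dependent manner. It lacks the KRAB repression domain that many zinc finger genes of chromosome 19 encode. The study examined it as a protein that binds LINE-1 retrotransposon sequences, and the comparison asks which RNAs of a somatic line change in level once the gene is disrupted.

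The 4 guides define the treatment and are shown because each falls in the coding part of the same exon. In GRCh37 the coding sequence of ZNF146 runs from 36727343 to 36728218 on the plus strand of chromosome 19, in exon 4, and holds 292 codons. None of the target sequences as listed by the study was followed by NGG, the motif that SpCas9 needs next to its target. Read on the opposite strand and completed from the genome to 20 bases, each was followed by NGG, and the lines give this reading with the adjacent motif in capitals and the coordinates of the 20 bases.
Guide 1, chr19:36727435-36727454, minus strand, cut in codon 32: gaaaatgctcatgctcagtgAGG
Guide 2, chr19:36727932-36727951, plus strand, cut in codon 202: catcacttattgtacatgtgAGG
Guide 3, chr19:36727356-36727375, plus strand, cut in codon 10: gccagcagagaatttacagtGGG
Guide 4, chr19:36727736-36727755, plus strand, cut in codon 137: gagtgtggaaaaaccttcagTGG
The cuts thus spread from the start of the coding sequence to beyond its middle, and all lie on 19q, the arm described further on. The bases that the study lists for guide 2 also matched chr19:37005173-37005191, within ZNF260, and those of guide 4 chr19:58639982-58640000, within ZNF329. The opposite-strand reading of these 2 matches has AGA and CCG in the place of the NGG motif.

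Library totals ranged from 22724439 to 28524025 counts over the 6 libraries, and the share of the 10 most counted genes lay between 8.95% and 12.5%, the most in sgZNF146 library 1. Of the 8 listed HEK293 markers, 7 were matched and all of them were counted in every library, with a summed level of 1267 to 1462 CPM (counts scaled to library size). The markers of blood cells summed to 1.51 to 2.69 CPM. Of the kidney tubule markers UMOD stood at 0 in every library and LRP2 made up nearly all of a summed 43.1 to 70.1 CPM. The fibroblast markers, chiefly COL1A1, summed to 59 to 75.1 CPM and the endothelial marker CDH5 to at most 0.21 CPM, and EV and sgZNF146 overlapped for the HEK293, tubule and fibroblast lists but lay apart for the other two, which were lower in sgZNF146 at these low sums.

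The RNA of the targeted gene was close to the level of the control. ZNF146 stood at 115 and 105 CPM in the EV libraries, at 99.2 and 103 CPM in the sgZNF146 libraries and at 88.4 and 101 CPM in the sgZNF507 libraries. Both sgZNF146 libraries lay below both EV libraries, but the sgZNF507 libraries, made without a ZNF146 guide, lay as low. Its log2 fold change over EV was -0.13 with a 95% interval from -0.29 to 0.04 (edgeR adjusted p = 1, n = 2 per group). A fall of ZNF146 RNA by more than 1.23-fold therefore lay outside the interval, and RNA levels say nothing here about the protein. According to the paper, ZNF146 protein was close to absent from the targeted cells by western blot. The paper also reports frequent indels at the guide sites in the RNA-seq reads, which control cells lacked. ZNF565, which overlaps ZNF146 on the opposite strand, stood at 3.98 and 3.65 CPM in EV and at 4.29 and 4.17 CPM in sgZNF146 (log2 fold change 0.15 ± 0.17, SE). ZNF260, which lies nearby on 19q and encodes a similar zinc finger protein, stood at 24.8 and 25.8 CPM in EV and at 25.2 and 26.7 CPM in sgZNF146 (log2 fold change 0.04 ± 0.10, SE), so that its groups overlapped, and the listed bases of guide 2 match within it, as given above.

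Across the transcriptome, edgeR's quasi-likelihood test, adjusted by Benjamini and Hochberg over 22010 genes, called 0 of them (0%) at the threshold of 0.05. Before adjustment 535 genes (2.43%) were under 0.05, of which 265 were higher (1.2%) and 270 lower (1.23%) in sgZNF146. DESeq2 on the same 6 libraries also called 0, and 153 genes were under 0.05 before adjustment. With the 4 EV and sgZNF146 libraries alone, edgeR and DESeq2 each called 3 genes, the mitochondrial RNAs MT-RNR1, MT-RNR2 and MT-TV described below. With the replicate number of the labels as a block, edgeR called 33 genes, 13 higher and 20 lower, with 1197 under 0.05 before adjustment, whereas DESeq2 with that block called 0, with 215 under 0.05 before adjustment. In 3077 genes (14%) both sgZNF146 libraries lay above both EV libraries, and in 3212 (14.6%) both lay below.

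A p that misses the threshold does not limit an effect, so each gene was given a bound, the end of its 95% interval that lies farther from no change. For 13338 genes (60.6%) the whole interval lay within 1.5-fold in either direction, for 17386 (79%) within 2-fold and for 21610 (98.2%) within 4-fold. With the replicate number as a block, 14125 lay within 1.5-fold and 17910 within 2-fold. The bound followed the level. Among the 4800 genes with a mean of at least 50 CPM, the median bound was 1.14-fold and 4784 intervals lay within 1.5-fold, whereas among the 4733 genes under 1 CPM the median bound was 2.45-fold and 0 intervals lay within 1.5-fold.

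Of the 11304 protein-coding genes with a mean of at least 5 CPM, 8296 (73.4%) had intervals within 1.25-fold, 11109 (98.3%) within 1.5-fold and 11300 within 2-fold. LncRNAs, most of which are present at low levels, were bounded less closely, with 882 of 3947 (22.3%) within 1.5-fold. The same held for pseudogenes, with 363 of 1756 (20.7%), and for genes whose exons add up to under 300 nt, with 67 of 792 (8.46%).

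**Figure D1:**
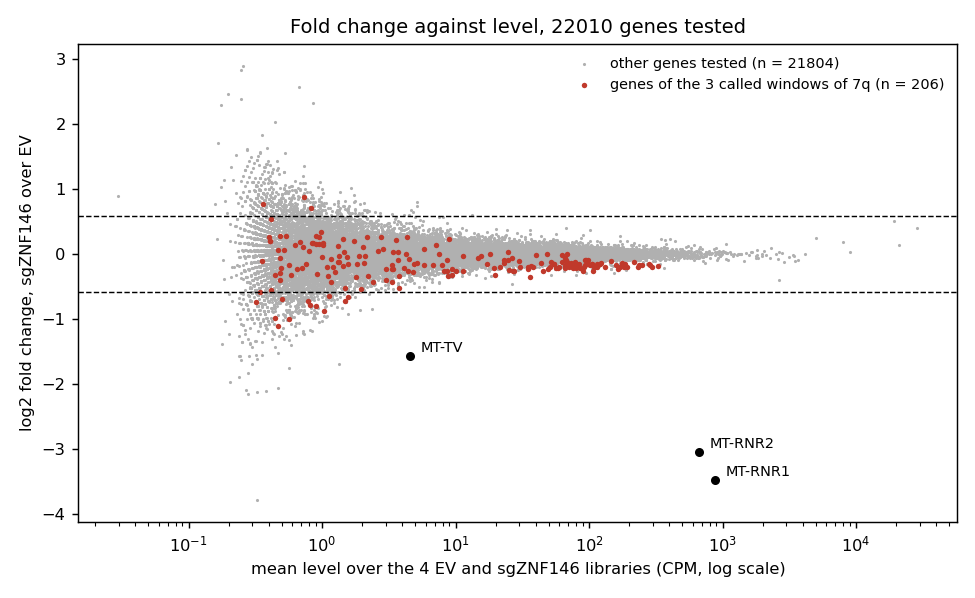
Log2 fold change of sgZNF146 over EV (vertical axis) against the mean level over the 4 libraries in CPM (horizontal log axis) for 22010 genes, with dashed lines at 1.5-fold. The spread narrows with level, the 206 genes of the called windows of 7q (red) sit below 0 at high levels, and MT-RNR1, MT-RNR2 and MT-TV stand apart below.

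The 4 protein-coding genes with a mean of at least 5 CPM and a bound beyond 2-fold were CCN2, ANKRD1, COL12A1 and KCNB2. CCN2, a secreted matricellular protein induced by the YAP coactivator, stood at 22.6 and 80.7 CPM in EV and at 27.1 and 76.8 CPM in sgZNF146. ANKRD1, another YAP target, stood at 16.7 and 53.5 CPM in EV and at 18.6 and 47.5 CPM in sgZNF146. For both genes the duplicates of a group lay much farther apart than the groups, and library 2 was the higher in EV and in sgZNF146 alike. The log2 fold changes were 0.00 (95% interval -1.29 to 1.29) for CCN2 and -0.09 (-1.25 to 1.07) for ANKRD1. These intervals come from the fit without a block, so that their width includes the difference between the replicate numbers. With the replicate block the log2 fold changes were 0.06 for CCN2 and -0.04 for ANKRD1. COL12A1, a fibril-associated collagen, stood at 20.5 and 41.2 CPM in EV and 17.1 and 27.7 CPM in sgZNF146, with a log2 fold change of -0.47 (95% interval -1.15 to 0.21), and was called lower with the replicate block (-0.44, edgeR adjusted p = 0.00627) and without a filter on low counts. Only KCNB2, described next, had a wide bound together with duplicates that lay close to each other.

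The 8 genes with the smallest p in the direction of higher levels in sgZNF146 have unlike functions, and none passed the adjusted threshold (edgeR adjusted p = 1 for each). With the replicate block edgeR called 7 of them, with adjusted p = 0.0217 for KCNB2, 0.00157 for ALDH1A2, 0.0408 for ERBB4, 0.000329 for LGALS3BP, 0.0131 for IRS2, 0.00397 for CLU and 6.36e-06 for RN7SL2, and not EIF1 (0.116). KCNB2, a voltage-gated potassium channel subunit, stood at 3.66 and 3.98 CPM in EV, 6.46 and 6.28 CPM in sgZNF146 and 3.86 and 3.45 CPM in sgZNF507. Its log2 fold change of 0.74 ± 0.16 (SE) was the largest among the 8 genes of this direction. ALDH1A2, which makes retinoic acid from retinaldehyde, stood at 11.7 and 9.37 CPM in EV and at 17.3 and 14.5 CPM in sgZNF146 (log2 fold change 0.60 ± 0.14). The values of sgZNF507, at 12.3 and 10.5 CPM, stayed near those of EV. ERBB4, a receptor tyrosine kinase for neuregulins, stood at 6.99 and 6.08 CPM in EV and at 8.94 and 10.4 CPM in sgZNF146 (log2 fold change 0.57 ± 0.15), with sgZNF507 above EV too at 8.51 and 7.56 CPM.

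LGALS3BP, a secreted glycoprotein that binds galectin-3, stood at 92.5 and 85.9 CPM in EV, 115 and 115 CPM in sgZNF146 and 123 and 100 CPM in sgZNF507, so that the libraries with ZNF507 guides were above EV as well. The same was seen for EIF1, a translation initiation factor that helps to select the start codon, at 320 and 314 CPM in EV, 371 and 367 CPM in sgZNF146 and 354 and 356 CPM in sgZNF507. IRS2, an adaptor of the insulin receptor, stood at 51.4 and 49.9 CPM in EV, 63.6 and 61.3 CPM in sgZNF146 and 57.5 and 53.5 CPM in sgZNF507 (log2 fold change 0.30 ± 0.07). CLU, an extracellular chaperone, stood at 75.3 and 86.2 CPM in EV, 94.8 and 103 CPM in sgZNF146 and 68.7 and 78.4 CPM in sgZNF507 (log2 fold change 0.29 ± 0.09). These 4 genes lay within 1.5-fold by their intervals, with bounds of 1.47-fold, 1.27-fold, 1.38-fold and 1.4-fold in the order named. RN7SL2, an RNA of the signal recognition particle, is uncertain because near-identical copies can share its reads, and it stood at 14235 and 17431 CPM in EV and at 24976 and 19802 CPM in sgZNF146.

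Of the 8 genes with the smallest p in the direction of lower levels, 3 lie on chromosome 18 and 2 on the mitochondrial genome. RPRD1A, a regulator of RNA polymerase II phosphorylation, stood at 173 and 163 CPM in EV and at 139 and 136 CPM in sgZNF146 (log2 fold change -0.29 ± 0.06, SE). SLC39A6, a zinc importer, stood at 125 and 114 CPM in EV and at 101 and 97.1 CPM in sgZNF146, and TPGS2, a subunit of the tubulin polyglutamylase complex, at 155 and 161 CPM and at 136 and 135 CPM. These are the 3 genes of chromosome 18, and in the sgZNF507 libraries they stood at 158 to 159, 118 to 119 and 164 to 166 CPM. LMBR1, known for the limb enhancer of Sonic hedgehog in its intron, lies on distal 7q and stood at 116 and 116 CPM in EV and at 98.7 and 94.9 CPM in sgZNF146. PCDH9, a protocadherin gene of chromosome 13, stood at 89.7 and 89.2 CPM in EV, at 69.1 and 73.8 CPM in sgZNF146 and, below EV as well, at 77.9 and 85.3 CPM in sgZNF507. TLE4, a corepressor of the Groucho family on chromosome 9, stood at 204 and 208 CPM in EV and at 168 and 177 CPM in sgZNF146. By the rule that chose these 6 nuclear genes their groups do not overlap, and all 6 intervals lay within 1.5-fold with edgeR adjusted p = 1. With the replicate block edgeR called all 6 of them, with adjusted p = 0.00202 for RPRD1A, 0.00157 for PCDH9, 0.0374 for TPGS2 and 0.0104 for each of SLC39A6, LMBR1 and TLE4.

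**Figure D2:**
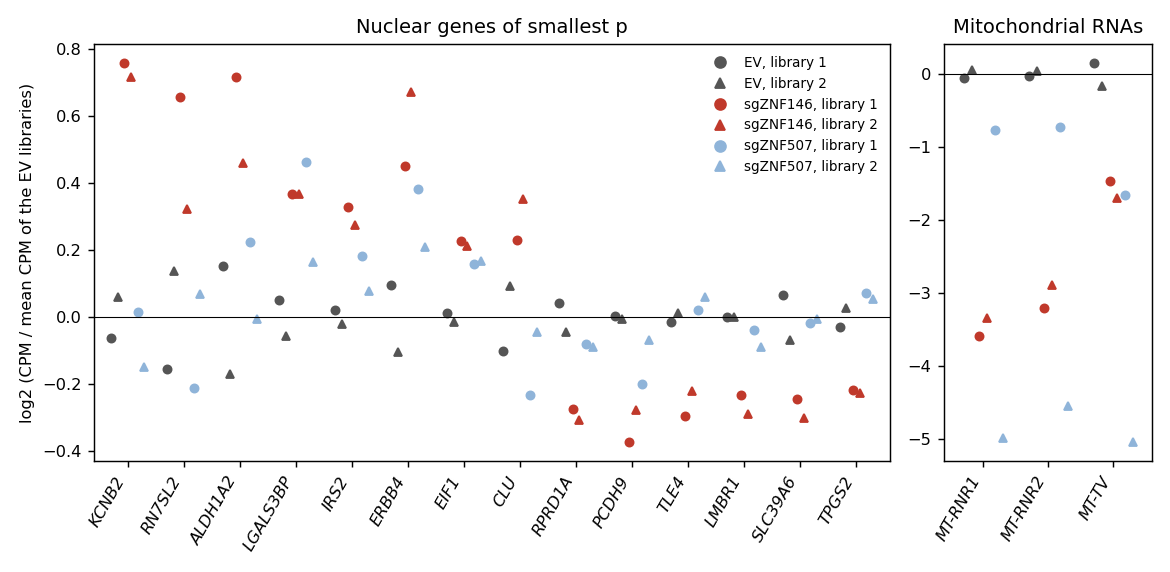
Log2 of CPM over the mean CPM of the EV libraries (vertical axis) in each of the 6 libraries for the genes of smallest p, nuclear genes on the left and mitochondrial RNAs on the right with their own axis. The sgZNF146 libraries (red) lie on one side of the EV libraries (dark) by the rule that chose the genes of smallest p, and the sgZNF507 libraries (blue) lie near EV in some genes and near sgZNF146 in others.

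The widest differences were those of 3 non-coding RNAs of the mitochondrial genome. MT-RNR1, the small mitochondrial ribosomal RNA, stood at 1550 and 1673 CPM in EV, at 133 and 158 CPM in sgZNF146 and at 944 and 50.9 CPM in sgZNF507. MT-RNR2, the large one, stood at 1154 and 1206 CPM in EV, 128 and 158 CPM in sgZNF146 and 709 and 50.3 CPM in sgZNF507. MT-TV, the valine tRNA encoded between them, stood at 7.59 and 6.11 CPM in EV, 2.48 and 2.11 CPM in sgZNF146 and 2.17 and 0.207 CPM in sgZNF507. The groups EV and sgZNF146 did not overlap for any of these RNAs, while the duplicates of sgZNF507 lay far apart for all of them. The log2 fold changes in sgZNF146 were -3.47 ± 0.74, -3.04 ± 0.68 and -1.57 ± 0.43 (SE) with edgeR adjusted p = 1 in the fit of 6 libraries. In the fit of the 4 EV and sgZNF146 libraries the same 3 genes passed, with edgeR adjusted p = 3.2e-10, 1.17e-09 and 0.0157. They passed as well in the fits of all but either sgZNF507 library, and with the replicate block (edgeR adjusted p = 2.99e-07, 3.8e-07 and 6.57e-05). The libraries were depleted of ribosomal RNA at the bench and ribosomal reads were removed before mapping, and the part of these steps in the difference was not tested.

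The mRNAs of the same genome did not show this difference. All 13 mitochondrial mRNAs were tested, 0 had an unadjusted p under 0.05, and every interval lay within 1.25-fold, with a median log2 fold change of -0.02. MT-ND4, a subunit of complex I and the highest of them by counts, stood at 3677 and 3875 CPM in EV and at 3681 and 3435 CPM in sgZNF146. MT-ND1, of the same complex, stood at 1397 and 1591 CPM in EV and at 1381 and 1378 CPM in sgZNF146 (log2 fold change -0.11 ± 0.07).

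Chromosome arms were compared by the median log2 level of their protein-coding genes with a mean of at least 5 CPM, relative to EV, in each library. Over the 41 arms the difference between sgZNF146 and EV ranged from -0.061 to 0.035 on the log2 scale, and in 40 arms it lay within 0.05 of 0. The widest bound of any arm was 1.07-fold and the median bound 1.03-fold. In this fit without a block a single arm passed the threshold (1 of 41, 2.44%, limma with Benjamini-Hochberg adjustment over arms). It was 19q, which carries ZNF146. With the replicate block 0 arms passed.

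The 430 genes of 19q had a median of -0.019 and 0.019 in the EV libraries, of -0.057 and -0.065 in the sgZNF146 libraries and of -0.017 and -0.031 in the sgZNF507 libraries. Both sgZNF146 libraries were lower than the other 4, and the difference from EV was -0.061 ± 0.017 (SE, limma adjusted p = 0.0142). In single genes this amounted to 80% with a fold change below 1, against 51.7% of all 11291 genes placed on arms. Among the genes of smallest p on the arm, SPTBN4, a beta spectrin of axonal membranes, stood at 10.8 and 10.3 CPM in EV and 8.27 and 8.31 CPM in sgZNF146. PNMA8A stood at 69.8 and 66.6 CPM in EV and 58.9 and 62.2 CPM in sgZNF146, whereas ZNF606, a KRAB zinc finger gene, was the reverse at 5.66 and 5.17 CPM in EV and 6.82 and 7.07 CPM in sgZNF146.

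The lower level of 19q was spread along the arm. In 10 Mb windows it was -0.042 ± 0.023 (SE) in the window of ZNF146 itself from 30 to 40 Mb, -0.068 ± 0.027 in the next and -0.067 ± 0.023 in the last, none of them past the threshold over windows (limma adjusted p = 0.991, 0.8 and 0.573). 19q is rich in GC, with a median of 56.5% over its genes, and the arms of like composition 19p (60.1% GC), 16p (57%) and 22q (55.6%) had differences of 0.001, 0.008 and 0.014. The part of GC content in the difference of 19q was not tested. The call on 19q was lost when the fit had every tested gene in place of the protein-coding ones (-0.050, limma adjusted p = 0.128), and with the replicate block, where 0 of the 41 arms passed (19q at -0.061, limma adjusted p = 0.297). It was lost as well without EV library 2 (-0.045, adjusted p = 0.396) and without either sgZNF146 library (-0.065 and -0.057, adjusted p = 0.264 and 0.655).

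**Figure D3:**
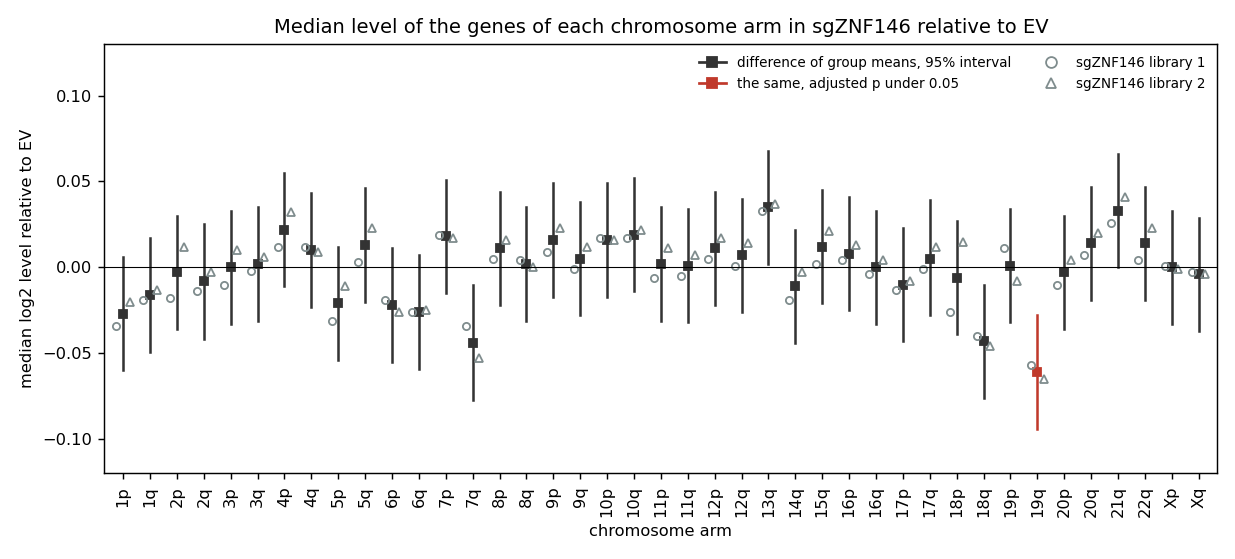
Difference in median log2 level between sgZNF146 and EV for each of 41 chromosome arms (squares, with 95% intervals from limma) and the value of each sgZNF146 library (open marks), on a log2 axis. 19q (red) is lowest at -0.061, followed by 7q and 18q, and no interval reaches beyond 0.094 from 0. The intervals and the red mark come from the fit without a block.

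Arms 7q and 18q came next, at -0.044 and -0.043 (limma adjusted p = 0.162 for both), and 13q was the highest at 0.035 (adjusted p = 0.38). On these 3 arms the median of the arm did not describe its genes evenly. With an unadjusted p under 0.05 and a lower level stood 56 of the 331 genes of 7q, 15 of the 124 of 18q and 12 of the 195 of 13q, against 10 of the 430 of 19q and 1.14% of all protein-coding genes placed on arms. With a higher level the share was 0.664% of all such genes.

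Of 216 windows of 10 Mb with at least 20 such genes, 3 passed the threshold (1.39%), and they were the last 3 windows of 7q, next to each other. In the window from 150 Mb to the end of chromosome 7 the median of 33 genes was 0.010 and -0.010 in the EV libraries, -0.182 and -0.195 in the sgZNF146 libraries and 0.056 and -0.007 in the sgZNF507 libraries. The difference from EV was -0.189 (limma adjusted p = 0.00185), or 12.3% lower. From 140 to 150 Mb it was -0.173 over 31 genes (adjusted p = 0.00185), with -0.181 and -0.166 in the sgZNF146 libraries. From 130 to 140 Mb it was -0.149 over 31 genes (adjusted p = 0.0372), with -0.157 and -0.141 in those libraries. The sgZNF507 libraries stood at -0.028 and 0.015 from 140 to 150 Mb and at -0.071 and 0.023 from 130 to 140 Mb, and the difference of sgZNF507 from EV was 0.025, -0.007 and -0.024 in the 3 windows from the end of the arm inward.

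The change along the arm was abrupt. In the neighboring window, from 120 to 130 Mb, the 33 genes had a difference of -0.009 ± 0.022 (SE), and 0 of them had an unadjusted p under 0.05 with a lower level, against 16, 19 and 19 in the 3 windows that follow. In those windows 28 of 31, 30 of 31 and 33 of 33 genes had a fold change below 1, and 19, 26 and 25 genes had both sgZNF146 libraries below both EV libraries, which 14% of all such genes did.

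**Figure D4:**
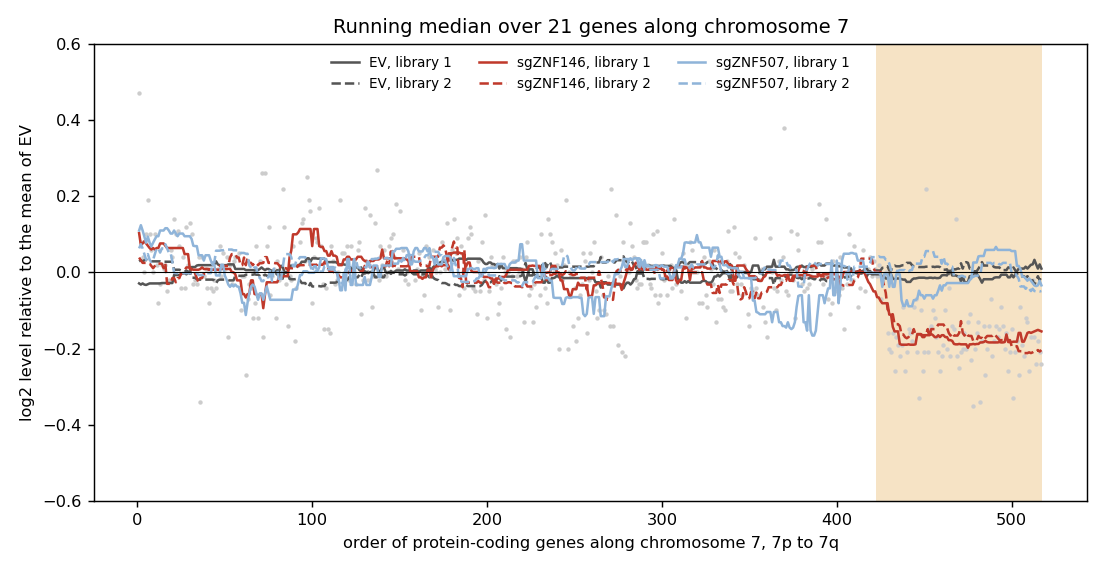
Running median over 21 protein-coding genes of the log2 level relative to EV (vertical axis) along chromosome 7, with genes in their order from 7p to 7q (horizontal axis), 1 line per library, grey points for the fold change of single genes in sgZNF146 and shading over the 3 called windows. Both sgZNF146 lines fall over the first genes of the shaded stretch, from -0.065 and 0.001, and then stay low to the end, down to -0.198 and -0.212. The EV lines lie between -0.042 and 0.042 throughout, and sgZNF507 library 1 lies between -0.166 and 0.124 before the shaded stretch and between -0.089 and 0.067 within it.

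The genes behind the windows have unlike functions and differed by similar amounts. DNAJB6, a chaperone of the HSP40 family, stood at 182 and 174 CPM in EV and at 161 and 142 CPM in sgZNF146. ESYT2, a tether between endoplasmic reticulum and plasma membrane, stood at 142 and 142 CPM in EV and at 122 and 123 CPM in sgZNF146. HIPK2, a nuclear serine/threonine kinase, stood at 308 and 324 CPM in EV and at 271 and 277 CPM in sgZNF146. None of DNAJB6, ESYT2 and HIPK2 overlapped between the groups, and their log2 fold changes were -0.24 ± 0.07, -0.21 ± 0.06 and -0.21 ± 0.06 (SE). With the replicate block DNAJB6 was called (edgeR adjusted p = 0.0217).

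MTPN, an inhibitor of actin capping, stood at 186 and 181 CPM in EV and at 160 and 157 CPM in sgZNF146, and AKR1B1, the aldose reductase, at 190 and 198 CPM and at 168 and 169 CPM. SSBP1, the single-stranded DNA binding protein of mitochondria, stood at 118 and 119 CPM in EV and at 105 and 102 CPM in sgZNF146, and TCAF1 at 83.3 and 79.9 CPM and at 68 and 71.8 CPM. All 4 genes were lower in both sgZNF146 libraries. Over all classes, the 3 windows held 206 tested genes with a median log2 fold change of -0.17, and 61 of them (29.6%) had an unadjusted p under 0.05 with a lower level, against 1.23% of all genes tested. They made up 61 of the 270 lower genes at that limit, and the other 209 were 0.959% of the genes elsewhere. With either sgZNF146 library left out, 0 windows passed the threshold, since the 2 distal windows then had limma adjusted p between 0.0574 and 0.0697 and differences between -0.195 and -0.166. The window from 130 to 140 Mb also missed it without EV library 2 (-0.141, limma adjusted p = 0.324) and with all tested genes (-0.125, adjusted p = 0.285).

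Segments of chromosomes 18 and 13 showed the same kind of pattern and are named here after their values were seen. The window of chromosome 18 from 30 to 40 Mb held 19 protein-coding genes of sufficient level, 1 too few to enter. With all of its 36 tested genes, its median was 0.020 and -0.020 in EV, -0.222 and -0.232 in sgZNF146 and 0.051 and 0.008 in sgZNF507, a difference of -0.227 (limma adjusted p = 0.0055 over the windows of that fit). RPRD1A, SLC39A6 and TPGS2 lie in it, as do ELP2, a subunit of the Elongator complex (118 and 110 CPM in EV, 94.4 and 97.9 CPM in sgZNF146), and GALNT1, which starts O-glycosylation (88.5 and 88.5 CPM, 73.2 and 75 CPM). With the replicate block ELP2 and GALNT1 were called (edgeR adjusted p = 0.0393 and 0.0271). The window before it, from 20 to 30 Mb, lay at -0.102 in the protein-coding genes (limma adjusted p = 0.0566), and the window after it, from 40 to 50 Mb, at 0.047 (adjusted p = 0.991). The window from 20 to 30 Mb passed with the 4 libraries alone and with DESeq2 size factors, but not with the replicate block or the mean. With windows of 20 Mb, 2 passed, that of chromosome 18 from 20 to 40 Mb and the last of 7q.

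On chromosome 13 the window from 70 to 80 Mb had 18 protein-coding genes of sufficient level, of which 18 had a fold change below 1 and 15 had both sgZNF146 libraries below both EV libraries. Over its 29 tested genes the median was 0.012 and -0.012 in EV and -0.170 and -0.154 in sgZNF146, but the sgZNF507 libraries lay at -0.097 and 0.056, and the difference of -0.162 did not pass (limma adjusted p = 0.285). TBC1D4, a Rab GTPase-activating protein of glucose transporter traffic, stood at 168 and 148 CPM in EV and at 139 and 129 CPM in sgZNF146, and was called with the replicate block (edgeR adjusted p = 0.0217). The transcription factor KLF5 stood at 33.4 and 32 CPM in EV and at 29.1 and 26.6 CPM in sgZNF146. Nearer the centromere the protein-coding genes of 13q lay above EV, by 0.050 from 20 to 30 Mb, by 0.067 from 30 to 40 Mb and by 0.078 from 50 to 60 Mb, with none of these windows past the threshold.

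Pathways were described by 29 gene lists with 1401 tested members in all. The medians of the lists lay between -0.07 and 0.08 on the log2 scale, and 26 of 29 lay within 0.05 of 0, where the median of all genes tested was 0.00. In 13 lists no member had an unadjusted p under 0.05. Over all lists 19 members (1.36%) were lower and 22 (1.57%) higher at that limit, against 1.23% and 1.2% of all genes tested, and 9 of the 19 lower ones came from the 16 members that lie in the called windows of 7q. Those 9 were ZNF783, ZNF777, ZNF786, ZNF212, ZNF746 and ZNF862, which are zinc finger genes, MRPS33, NDUFB2 and PDIA4. Of the other 1385 members, 10 were lower and 22 higher.

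**Figure D5:**
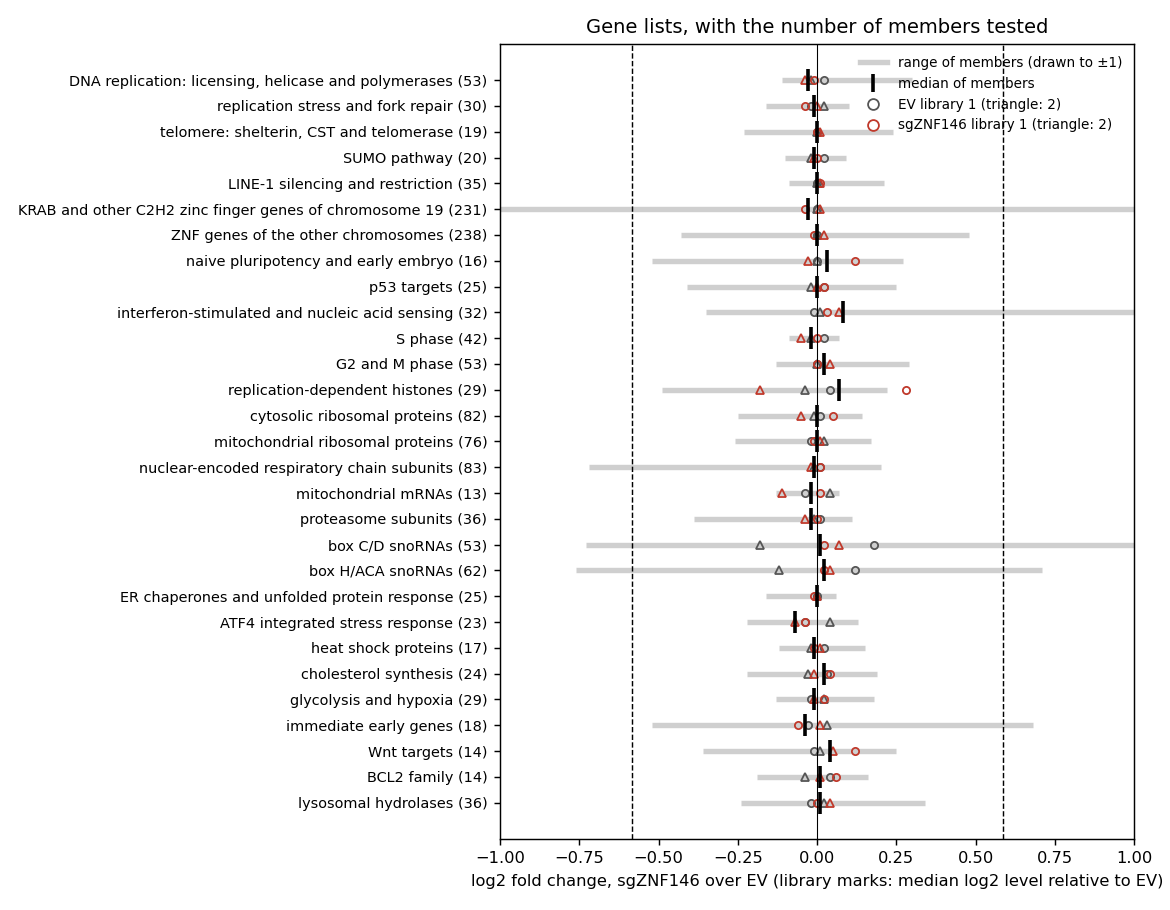
Median log2 fold change of each of 29 gene lists (black ticks), the range of its members (grey bars) and the median level in each EV and sgZNF146 library relative to EV (open marks), on a log2 axis with dashed lines at 1.5-fold. The list medians lie between -0.07 and 0.08, and the marks of the 2 sgZNF146 libraries lie far apart for the replication-dependent histones.

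The machinery of DNA replication was among the most closely bounded. Of its 53 tested genes 0 had an unadjusted p under 0.05, the median log2 fold change was -0.03 and 52 intervals lay within 1.25-fold. MCM7, of the replicative helicase, stood at 520 and 511 CPM in EV and at 506 and 495 CPM in sgZNF146, and POLD1, the catalytic subunit of polymerase delta on 19q, at 160 and 172 CPM and at 152 and 155 CPM. The 30 genes of replication stress and fork repair likewise had 0 members under 0.05, with FANCI, a Fanconi anemia protein, at 209 and 195 CPM in EV and 202 and 202 CPM in sgZNF146. RAD17, the loader of the checkpoint clamp, had the widest bound of that list at 1.31-fold.

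Genes of the cell cycle were as level. All 42 S phase genes lay within 1.5-fold, with a median of -0.02. So did all 53 genes of G2 and M phase, with a median of 0.02. Of the latter, 2 (3.77%) were higher at an unadjusted p under 0.05, against 1.2% of all genes tested. MCM2, another helicase subunit, stood at 509 and 492 CPM in EV and 511 and 481 CPM in sgZNF146, and CLSPN, an adaptor of the checkpoint kinase CHEK1, at 201 and 196 CPM and at 185 and 189 CPM. MKI67, the proliferation antigen, stood at 644 and 658 CPM in EV and at 696 and 704 CPM in sgZNF146 (log2 fold change 0.10 ± 0.06). CBX5, which encodes the heterochromatin protein HP1 alpha, was 1 of the 2 higher genes, at 339 and 344 CPM in EV, 376 and 412 CPM in sgZNF146 and 310 and 361 CPM in sgZNF507. Its log2 fold change of 0.21 ± 0.08 had edgeR adjusted p = 1.

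Among 35 tested genes that silence or restrict LINE-1 elements, CBX5 was the only member with an unadjusted p under 0.05, while the list median was 0.00 and 34 intervals lay within 1.5-fold. TRIM28, the corepressor of KRAB zinc finger proteins, stood at 930 and 941 CPM in EV and at 897 and 867 CPM in sgZNF146, with a bound of 1.16-fold. MORC2, named after its values were seen, is an effector of the HUSH silencing complex and stood at 100 and 102 CPM in EV and at 102 and 97.1 CPM in sgZNF146. The interferon-stimulated and nucleic acid sensing genes, of which 32 were tested, had the highest median of the lists at 0.08, and its median in sgZNF507 over the same EV libraries was 0.08 too. At an unadjusted p under 0.05, 3 members (9.38%) were higher, against 1.2% of all genes tested, and 0 were lower. These were IFIT5 (13.4 and 11 CPM in EV, 15.2 and 15.2 CPM in sgZNF146), IFITM3 (4.86 and 7.27 CPM, 9.1 and 8.82 CPM) and IFI44 (0.241 and 0.398 CPM, 0.709 and 0.596 CPM), all of low level. MAVS, the mitochondrial adaptor of RNA sensing and the highest member by counts, stood at 117 and 122 CPM in EV and at 123 and 123 CPM in sgZNF146. The median of the list fell to 0.00 without EV library 1 and to 0.02 without sgZNF146 library 2.

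Of 231 tested zinc finger genes on chromosome 19, the family of ZNF146, 5 (2.16%) were higher and 3 (1.3%) lower at an unadjusted p under 0.05, against 1.2% and 1.23% of all genes tested. Their median was -0.03 and 182 intervals lay within 1.5-fold. In 25.1% of them both sgZNF146 libraries lay below both EV libraries, against 14.6% of all genes tested. In 17.3% both lay above, against 14%. Of the protein-coding genes of 19q with a mean of at least 5 CPM, 34.2% had both sgZNF146 libraries below both EV libraries. Of 238 zinc finger genes on the other chromosomes, 2 (0.84%) were higher and 9 (3.78%) lower, with a median of 0.00. Of those 9, 6 are the zinc finger genes of distal 7q named above. ZNF444 on 19q stood at 69.3 and 75.5 CPM in EV and at 65.8 and 63.8 CPM in sgZNF146. ZNF783 on 7q stood at 37.4 and 43.2 CPM in EV and at 30.7 and 32.6 CPM in sgZNF146 (log2 fold change -0.35 ± 0.09), and was called with the replicate block (edgeR adjusted p = 0.0162). ZNF503, a transcriptional repressor, stood at 496 and 561 CPM in EV and at 553 and 593 CPM in sgZNF146, so that its groups overlapped.

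Proteins that have been described as partners of ZNF146 belong to the SUMO pathway, to telomeres and to the replisome. Genes of DNA replication were given above, as was CLSPN, whose product Claspin is named as a partner in work the paper cites. All 20 genes of the SUMO pathway had intervals within 1.25-fold and 0 had an unadjusted p under 0.05, with a median of -0.01. RANBP2, a SUMO ligase of the nuclear pore, stood at 341 and 321 CPM in EV and at 313 and 328 CPM in sgZNF146. Of 19 tested telomere genes, TERT, the reverse transcriptase of telomerase, was the only member at an unadjusted p under 0.05. TERT stood at 21 and 23.5 CPM in EV, 18.2 and 19.8 CPM in sgZNF146 and 20.4 and 21.1 CPM in sgZNF507 (log2 fold change -0.23 ± 0.10, edgeR adjusted p = 1). NHP2, of the telomerase and snoRNA particles, stood at 155 and 153 CPM in EV and at 149 and 148 CPM in sgZNF146.

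In the response to DNA damage, of 25 tested p53 targets 1 (4%) was lower and 0 higher by an unadjusted p under 0.05. Among all genes tested 1.23% were lower. The list median was 0.00. MDM2, the ubiquitin ligase of p53 and itself a target, stood at 160 and 152 CPM in EV and at 175 and 167 CPM in sgZNF146, a log2 fold change of 0.13 with a bound of 1.21-fold. CDKN1A, the inhibitor that arrests the cycle downstream of p53, stood at 15.2 and 12.4 CPM in EV and at 17.5 and 14.8 CPM in sgZNF146, so that its groups overlapped. The BCL2 family had 0 of 14 members under 0.05, with BCL2L11 at 72.9 and 66.6 CPM in EV and 79.9 and 72.1 CPM in sgZNF146, and MCL1 at 173 and 189 CPM and at 176 and 184 CPM.

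Protein synthesis and turnover were bounded closely at the level of single genes. Of 82 tested cytosolic ribosomal protein genes 0 had an unadjusted p under 0.05, the median was 0.00 and 79 intervals lay within 1.25-fold. RPL8 stood at 1756 and 1790 CPM in EV and at 1937 and 1762 CPM in sgZNF146, and RPS10 at 113 and 104 CPM and at 119 and 119 CPM. Of 76 mitochondrial ribosomal protein genes 1 (1.32%) was higher and 1 (1.32%) lower, against 1.2% and 1.23% of all genes tested. The lower one was MRPS33 on distal 7q, at 28 and 30.4 CPM in EV and 24.3 and 24.5 CPM in sgZNF146. MRPL4 stood at 164 and 173 CPM in EV and at 168 and 160 CPM in sgZNF146. Of 36 tested proteasome subunits 0 had an unadjusted p under 0.05, with PSMD3 at 339 and 345 CPM in EV and 344 and 335 CPM in sgZNF146, and PSMD8 on 19q at 153 and 150 CPM and at 142 and 143 CPM.

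Of 83 tested nuclear-encoded subunits of the respiratory chain 1 (1.2%) was lower and 0 higher at an unadjusted p under 0.05, with a median of -0.01. Among all genes tested 1.23% were lower. The lower subunit was NDUFB2, of complex I and on distal 7q, at 70.7 and 72 CPM in EV, 63.6 and 63.4 CPM in sgZNF146 and 77.1 and 74.9 CPM in sgZNF507. ATP5F1B, the beta subunit of ATP synthase, stood at 601 and 582 CPM in EV and at 596 and 574 CPM in sgZNF146.

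Stress pathways differed little. Of 25 genes of ER chaperones and the unfolded protein response all had intervals within 1.5-fold, and PDIA4, a disulfide isomerase on distal 7q, was the only one at an unadjusted p under 0.05, at 285 and 306 CPM in EV and 259 and 270 CPM in sgZNF146. CANX, the membrane chaperone calnexin, stood at 687 and 660 CPM in EV and at 703 and 659 CPM in sgZNF146. The 23 genes of the ATF4 response had the lowest median of the lists at -0.07, with 0 members under 0.05. ASNS, the asparagine synthetase, stood at 35.8 and 46.4 CPM in EV and at 34.3 and 36.5 CPM in sgZNF146, and SLC7A5, a transporter of large amino acids, at 273 and 278 CPM and at 261 and 251 CPM. Both EV libraries lay above both sgZNF146 libraries for SLC7A5 and not for ASNS. Of 17 tested heat shock genes 0 had an unadjusted p under 0.05, with HSP90AB1 at 1910 and 1858 CPM in EV and 1854 and 1767 CPM in sgZNF146 and HSPE1 at 47.3 and 40.6 CPM and at 41.3 and 39.5 CPM.

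Metabolic lists gave the same picture. Of 24 tested genes of cholesterol synthesis 0 had an unadjusted p under 0.05 and all had intervals within 1.5-fold, with MVD, a decarboxylase of the mevalonate pathway, at 55.8 and 60.9 CPM in EV and at 65.6 and 61.8 CPM in sgZNF146. Of 29 tested genes of glycolysis and hypoxia, PFKP, the platelet type of phosphofructokinase, was the only one under 0.05, at 127 and 133 CPM in EV and 150 and 140 CPM in sgZNF146, and GAPDH stood at 2591 and 2650 CPM and at 2739 and 2624 CPM. Of 36 lysosomal hydrolase genes 2 (5.56%) were higher and 1 (2.78%) lower, against 1.2% and 1.23% of all genes tested. GLA, the alpha-galactosidase A, was among the former at 85.6 and 74.8 CPM in EV, 92.2 and 97 CPM in sgZNF146 and 148 and 132 CPM in sgZNF507. PSAP, the precursor of the saposins, stood at 341 and 337 CPM in EV and at 358 and 342 CPM in sgZNF146.

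Signaling and developmental genes had wider bounds because many are present at low levels. Of 18 immediate early genes 11 lay within 1.5-fold, and EGR1, a zinc finger factor induced by growth signals, was the only one at an unadjusted p under 0.05, at 3.78 and 3.33 CPM in EV, 5.48 and 5.88 CPM in sgZNF146 and 5.08 and 4.97 CPM in sgZNF507 (log2 fold change 0.68 ± 0.16, edgeR adjusted p = 1). JUN, of the AP-1 factor, stood at 241 and 354 CPM in EV and at 254 and 334 CPM in sgZNF146. Its values lay farther apart within groups than between them, with library 2 the higher in both groups. IER2 stood at 50.4 and 49 CPM in EV and at 47.1 and 43.6 CPM in sgZNF146. Of 14 Wnt targets 0 had an unadjusted p under 0.05, with CCND1, the cyclin of G1, at 46.5 and 43.1 CPM in EV and 53 and 48.1 CPM in sgZNF146, and ZNRF3, a ligase that removes Wnt receptors, at 60.1 and 58.9 CPM and at 62.1 and 58.1 CPM. Of 26 genes of naive pluripotency and the early embryo 16 were tested, KLF5 was the only one under 0.05, and LIN28B, which blocks let-7 maturation, stood at 101 and 92.4 CPM in EV and 91.9 and 85.2 CPM in sgZNF146.

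Small and multicopy RNAs could not be bounded as closely. Of 53 tested box C/D snoRNAs, a class that mostly guides ribose methylation, 8 had intervals within 1.5-fold. At an unadjusted p under 0.05, 3 of them (5.66%) were higher. Of 62 box H/ACA snoRNAs, a class that mostly guides pseudouridylation, 8 lay within 1.5-fold and 2 (3.23%) were higher at that limit. Among all genes tested 1.2% were higher. SNORD17 stood at 67.6 and 48.2 CPM in EV and at 75.9 and 75.5 CPM in sgZNF146 (log2 fold change 0.39 ± 0.12, edgeR adjusted p = 1, and 0.00842 with the replicate block), and SNORA73B at 181 and 127 CPM and at 173 and 200 CPM. SNORD3B-2, a copy of the U3 RNA, stood at 479 and 344 CPM in EV and at 551 and 386 CPM in sgZNF146, where near-identical copies can share reads. Of 29 tested replication-dependent histone genes 0 had an unadjusted p under 0.05. Their median level relative to EV was 0.28 in sgZNF146 library 1 and -0.18 in library 2, so that the duplicates lay farther apart than the groups, and H1-4 stood at 885 and 789 CPM in EV and at 1044 and 710 CPM in sgZNF146. H2AC21 stood at 46.6 and 52.4 CPM in EV and at 63 and 52.5 CPM in sgZNF146.

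Some of the named genes overlap another annotated gene with counts, and their values can include its reads. On the same strand this holds for MCM7, POLD1, CBX5, NDUFB2, KCNB2, ALDH1A2, PCDH9, SSBP1, MDM2, RPS10, MT-ND4, among others, and the snoRNAs SNORD17 and SNORA73B, whose host genes cover them. On the opposite strand it holds for ZNF146, ZNF565, LMBR1, TPGS2, HIPK2, MTPN, FANCI, GLA and CCND1 among others, and the strand setting used in counting is not given in the sources used here.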

How the data were processed

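RNA of HEK293 cells treated as described above had been sequenced as strand-specific, ribosome-depleted, paired-end libraries, 2 per group. Per the labels and the study's methods, the authors trimmed the reads, took out ribosomal ones, aligned the others with TopHat2 to hg19 (GRCh37) and assigned them to Ensembl genes by featureCounts. The deposited table holds raw counts, 1 column per library, and 0 columns were without a sample. Removal of ribosomal reads can bear on the mitochondrial rRNAs, which was not tested, and counts without molecular identifiers include PCR duplicates.

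Counts were fitted with edgeR 4.0.16 under R 4.3.3 (filterByExpr, TMM, glmQLFit on 6 libraries, glmQLFTest of sgZNF146 against EV, Benjamini-Hochberg adjustment, threshold 0.05). Levels are given as CPM on TMM-adjusted library sizes. The 95% interval of a log2 fold change is the coefficient difference with a standard error from the working weights and posterior quasi-dispersion on 12.5 median degrees of freedom, never narrower than counting error. Gene classes and positions came from GENCODE on GRCh37, which matched 96.1% of 57773 identifiers. For arms and 10 Mb windows with at least 20 protein-coding genes of at least 5 CPM, the median log2 CPM (prior count 2) relative to EV in each library was tested with limma 3.58.1. Arms were split at the longest run of unknown bases. The steps were tested on simulated data.

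The labels give each group the replicate numbers 1 and 2. Deviations of same-numbered libraries from their group means correlated over 22010 genes. The r was 0.138 between EV and sgZNF146, 0.176 between EV and sgZNF507 and 0.145 between sgZNF146 and sgZNF507. These correlations are positive but low and do not establish a pairing. In the fits with a block the numbers were taken to pair the libraries, as an assumption. The main fits, from which the gene counts, bounds, arms, windows and lists come, have no block and so leave this pairing out. Their spread includes any difference between the replicate numbers. At an unadjusted p under 0.05 the main edgeR fit gave 535 genes, and edgeR with the block gave 1197. Values with the replicate number as a block are given where it changes the call of a gene, arm or window named here.

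The comparison, the gene lists and the tests were chosen with earlier results of these data known, so the lists carry no test. Named were ZNF146 and its neighbors, the 8 genes of smallest unadjusted p in each direction among those with at least 5 CPM and groups that do not overlap, in each list the member of smallest p with at least 10 CPM and the member of highest level, the genes called with 6 or 4 libraries, and the 3 genes of smallest p in each called region. Some genes that this rule names are not reported here. CCN2, ANKRD1, COL12A1, IFITM3, IFI44, EGR1, CDKN1A, MORC2, ELP2, GALNT1, TBC1D4 and the zinc finger genes listed for 7q were named after their values were seen.

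Alternatives were DESeq2 1.42.0, the 4 libraries alone, other normalizations and filters, a replicate block, Bonferroni adjustment and intervals, limma-voom intervals, 2 one-sided tests, the mean in place of the median, all tested genes, windows of 5 and 20 Mb, and leaving out each library. LINE-1 elements, indels and protein were not analysed here.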

Additional observations from a re-analysis of the deposited data

How the results depend on the processing

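The count of 0 genes past the threshold became 3 with the 4 EV and sgZNF146 libraries alone in edgeR and in DESeq2, 19 without a filter on low counts and 0 to 3 with a library left out, where the 3 were MT-RNR1, MT-RNR2 and MT-TV. Bonferroni intervals left 1666 genes within 1.5-fold and 8656 within 2-fold, by their greater width. Of the 41 arms, 4 passed with the 4 libraries alone (7q, 13q, 18q and 19q), 2 with the mean in place of the median, 0 with all tested genes and 0 to 4 with a library left out. Of the windows, 1 passed at 5 Mb, where most windows of distal 7q held too few genes, and 0 to 4 with a library left out. The list median farthest from 0 was 0.07 with at least 10 counts in every library and lay between -0.19 and 0.28 with a library left out, in the histone list at both ends. With a library left out, the log2 fold changes of 10 named genes near 0 changed sign, between -0.06 and 0.03 for MCM2, -0.24 and 0.32 for H1-4, -0.01 and 0.13 for RPL8, -0.04 and 0.01 for ATP5F1B, -0.09 and 0.44 for SNORD3B-2, -0.03 and 0.06 for CANX, -0.27 and 0.28 for JUN, -0.03 and 0.06 for ZNRF3, -0.08 and 0.05 for MCL1 and -0.01 and 0.08 for ZNF260. The cause of these changes was not tested.

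With the replicate number as a block, edgeR called 33 genes (13 higher, 20 lower, 4 of them in the called windows of 7q) and DESeq2 called 0, with 215 at an unadjusted p under 0.05. With this block 0 arms passed (19q at -0.061, limma adjusted p = 0.297), and the same 3 windows did. Among the genes, arms and windows named above, it changed no call beyond those given with their values. The 33 genes include others not described here, among them ALPG, CCNA1, HAND1, HMOX1, MIRLET7BHG, RN7SL3 and XRCC2. With 2 libraries per group, a gene under 1 CPM could not be bounded within 1.5-fold.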
